A study of Mus musculus with 6 samples.

Results

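Btg2 and Btg1 are the mouse genes of a small family of antiproliferative proteins, and their transcripts were compared between macrophages given lipopolysaccharide and untreated cells. The members were every probe that the platform annotation assigns to either gene, which gave 1 probe for Btg2 (probe 15706, Entrez gene 12227) and 1 for Btg1 (probe 15787, Entrez gene 12226), 2 of 16281 probes in all. No probe assigned to several genes held either of them. RNA came from RAW 264.7, an established mouse macrophage line (written RAW 264.4 in some of the labels). For 1 h the cells received lipopolysaccharide (LPS, 100 ng/ml), a component of the outer membrane of Gram-negative bacteria, together with LPS-binding protein (LBP, 100 pM), which delivers LPS to its receptor, or were left untreated for the same time. Each of 6 dual-channel arrays carried both RNAs, 3 with the treated RNA in Cy5 (forward arrays) and 3 with it in Cy3 (swapped arrays), and the arrays of each orientation are numbered as sets 1 to 3. LPS and LBP were always given together and at 1 time, so neither agent alone nor another time was compared.

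BTG and TOB proteins share a conserved amino-terminal domain that binds the deadenylase subunits CNOT7 and CNOT8 of the CCR4-NOT complex, and through it they promote shortening of mRNA poly(A) tails. Btg2 was cloned as a gene induced by a tumour promoter (TIS21) and by nerve growth factor (PC3), and it is also a target of the tumour suppressor p53. Btg1 takes its name from a translocation breakpoint in B-cell leukaemia, and it is known for high expression in resting cells, where both proteins help to keep lymphocytes quiescent.

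The promoters of the 2 genes are shown because 1 gene responded on every array and the other gave no call. Each line holds the 250 bases before and the first 50 bases of the RefSeq transcript start (build GRCm38.p6), read 5′ to 3′ on the strand of the gene, for Btg2 chr1:134079106-134079405 on the minus strand and for Btg1 chr10:96616751-96617050 on the plus strand. Capitals mark the matched motifs.
Btg2: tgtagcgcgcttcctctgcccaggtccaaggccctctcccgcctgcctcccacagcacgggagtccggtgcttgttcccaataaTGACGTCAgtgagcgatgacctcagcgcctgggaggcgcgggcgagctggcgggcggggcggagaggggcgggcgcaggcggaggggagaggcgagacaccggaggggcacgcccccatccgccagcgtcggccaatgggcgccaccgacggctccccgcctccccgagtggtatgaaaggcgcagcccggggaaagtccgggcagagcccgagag
Btg1: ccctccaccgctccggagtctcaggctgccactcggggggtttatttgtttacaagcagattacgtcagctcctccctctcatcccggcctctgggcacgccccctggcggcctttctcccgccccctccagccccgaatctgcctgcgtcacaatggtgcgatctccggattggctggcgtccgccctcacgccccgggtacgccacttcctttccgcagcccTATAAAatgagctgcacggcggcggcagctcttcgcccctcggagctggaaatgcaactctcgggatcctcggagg
On both strands, 6 motifs were searched. The Btg2 window held the cyclic AMP response element TGACGTCA, 166 bases before the start, which 1.79% of 32851 promoters of the same length held. The Btg1 window held the TATA box TATAAA, whose first base lies 26 bases before the start and which was found in 13.6% of promoters. The letters of the AP-1 site (TGANTCA, in 7.81% of promoters), the EGR site (GCGGGGGCG or GCGTGGGCG, 3.47%), the kappaB site (8.46%) and the CArG box (1.63%) were in neither window, and the matches found do not overlap. A match of letters is a description and shows no binding. The windows were 72.0% G or C for Btg2 and 64.7% for Btg1, against a median of 52.7% over all promoters.

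Each deposited value is a log2 ratio between the channels of an array, so the values carry no level of either RNA, and in bulk RNA more transcript per cell cannot be told apart from a shift in the mixture of cells. Ratios were read as Cy5 over Cy3, because the labels name the Cy5 sample the test on every array, and the sign of the 3 swapped arrays was turned. Every value below is therefore treated over untreated, and every sign would turn if Cy3 were the numerator. Read this way, Egr1 (5.13) and Tnf (2.44), named as genes known to respond to LPS, were higher in treated cells. An exact 0 was taken as no ratio and made up 8.99% to 23.9% of an array. Of the 200 complete probes with the largest ratios, 169 had opposite signs in the 2 orientations before turning. Without turning, arrays of the same orientation correlated at r = 0.596 to 0.805 and arrays of opposite orientation at r = -0.633 to -0.145 over 11442 probes. Among 9 macrophage markers on the array, 8 had a ratio on all 6 arrays and 1 was called (Adgre1, 0.55). Of the others, 5 of 6 lymphocyte markers and 2 of 9 fibroblast and epithelial markers had such ratios, with Cd4 (0.47) and Cd79a (0.20) called. The test described below called 13.2% of all genes. No marker was at 0 on all arrays, and a ratio does not tell whether a marker is expressed, so the labelled cell type could not be checked by level.

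Btg2 rose strongly and on every array. The deposited Btg2 ratio was 3.04, 3.46 and 3.43 on the forward arrays (sets 1, 2 and 3) and -2.60, -2.92 and -2.79 on the swapped arrays. The sign thus followed the treated RNA from 1 dye to the other on all 6 arrays, as it did for 19.1% of all genes tested. The deposited Btg1 ratio was 0.36, 0.32 and 0.03 on the forward arrays and 0.53, 0.38 and 0.12 on the swapped arrays. Here the sign stayed positive whichever RNA was in Cy5, so the Btg1 probe was brighter in Cy5 in both orientations. In each orientation the Btg1 ratio was lowest in set 3.

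**Figure D1:**
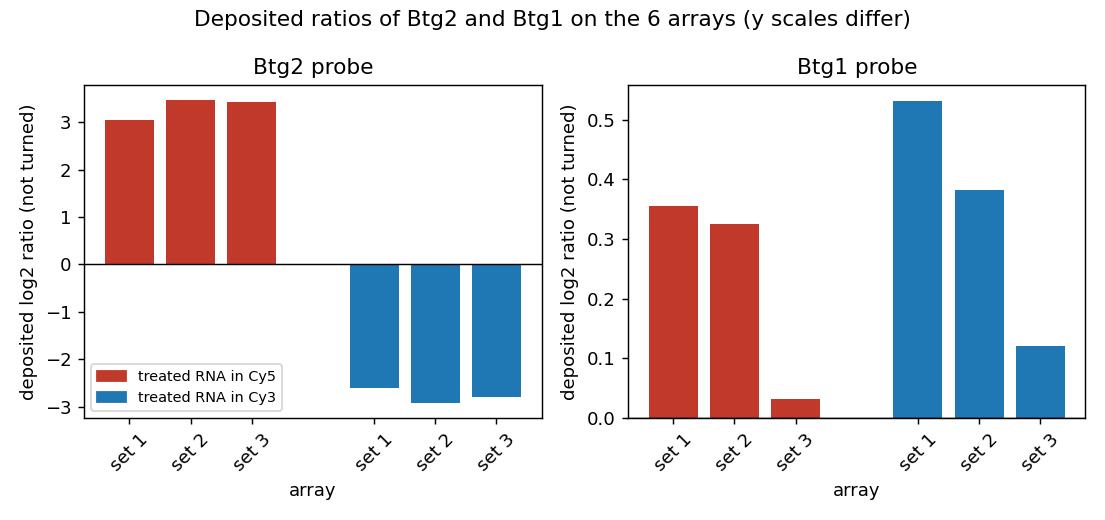
Deposited log2 ratio (y axis, before any array was turned, scales differ) of the Btg2 probe (left) and the Btg1 probe (right) on each of the 6 arrays (x axis), 1 bar per array, red with treated RNA in Cy5 and blue with treated RNA in Cy3. The Btg2 bars change sign with the orientation, from 3.04 and above in red to -2.60 and below in blue, and all 6 Btg1 bars are above 0.

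For the test, the turned arrays that share a set number were averaged, and the 3 averages were set against 0 with limma over 8331 genes that had a ratio on all 6 arrays. Of these genes, 13.2% were called at a Benjamini-Hochberg adjusted p under 0.05, 6.96% higher and 6.21% lower in treated cells. Nothing in the labels shows that the sets were separate cultures. The p-values then measure only the spread among these arrays, which may be technical, and precision is limited by how few arrays there are.

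The Btg2 set averages were 2.82, 3.19 and 3.11, with a mean of 3.04 ± 0.20 (SD, n = 3 sets), which is 8.22-fold. The difference from 0 was far larger than the spread (limma, adjusted p = 7e-06), and its 95% interval ran from 2.85 to 3.23. Btg2 ranked 6 among the 8331 genes, behind Egr1, Egr2, Nfkbiz, Cd83 and Phlda1 and just above Ifnb1. On single arrays its rank was 7, 7 and 5 on the forward arrays and 15, 11 and 8 on the swapped arrays. The mean was 3.31 ± 0.24 on the forward arrays, or 9.92-fold, and 2.77 ± 0.16 on the swapped arrays, or 6.82-fold (SD, n = 3 arrays each). The lowest forward array stood at 3.04 and the highest swapped array at 2.92. How many other genes had such a gap between orientations was not counted. The SD of Btg2 was exceeded by 7.17% of genes, and the median SD of a gene was 0.0741.

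Btg1 gave no call. Its turned ratios were 0.36, 0.32 and 0.03 on the forward arrays and -0.53, -0.38 and -0.12 on the swapped arrays, so every array of 1 orientation was above 0 and every array of the other below. Such a split occurred in 13.7% of genes. The set averages of -0.09, -0.03 and -0.04 gave a mean of -0.05 ± 0.03 (SD, n = 3; limma, adjusted p = 0.448), with a 95% interval from -0.15 to 0.04. Opposite signs cancel in each average, and the 6 turned arrays themselves had an SD of 0.36. A fit to the 6 single arrays with a dye term gave a wider interval, -0.21 to 0.10 (adjusted p = 0.664). In size, 59.4% of all genes had a larger mean ratio than Btg1.

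The mean of the unturned ratios measures how much brighter a probe was in Cy5 whichever RNA it carried. For Btg2 it was 0.27 ± 0.05 (SD, n = 3 sets; limma, adjusted p = 0.114), a size that 4.55% of genes exceeded. For Btg1 it was 0.29 ± 0.19 (SD, n = 3 sets; limma, adjusted p = 0.14), a size that 3.52% of genes exceeded. Neither passed the test, which called a dye component in 0.06% of genes. In the fit to single arrays, where 277 genes had a called dye component, the adjusted p was 0.0677 for Btg2 and 0.0595 for Btg1. The dye components of the Btg2 and Btg1 probes were thus close in size, while the treatment components were 3.04 for Btg2 and -0.05 for Btg1.

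**Figure D2:**
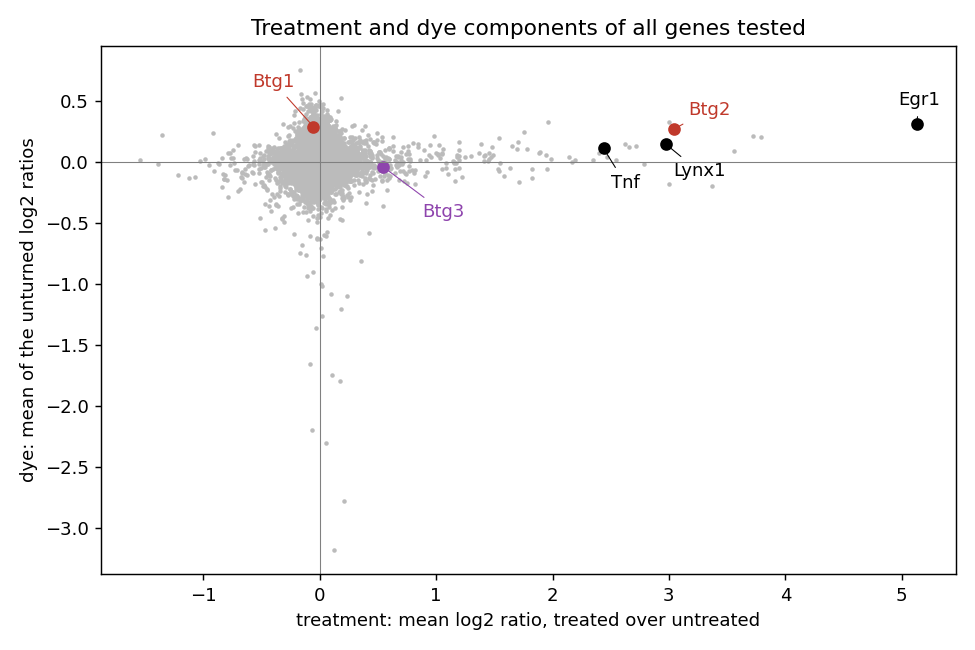
Each grey point is 1 of 8331 genes, with the mean log2 ratio of treated over untreated RNA on the x axis and the mean of the unturned log2 ratios, the dye component, on the y axis. Btg2 lies at 3.04 on the treatment axis, among few other genes, and Btg1 at -0.05 within the cloud, with dye components of 0.27 and 0.29. Btg3, Egr1, Tnf and Lynx1 are also marked.

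Set by set, the Btg2 ratio exceeded the Btg1 ratio by 2.91, 3.22 and 3.16, a mean difference of 3.09 ± 0.17 (SD, n = 3), and on single arrays by 2.68 to 3.40. The difference had the same direction on 6 of 6 arrays. An exact two-sided sign-flip permutation test over the 3 sets gave p = 0.25, which is the smallest p that 3 sets allow. This compares changes between the genes, not their levels, which ratios from different probes cannot give.

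Among the relatives, Btg3 also rose and the other genes gave no call. With Btg2 and Btg1 counted in, 2 of the 6 BTG and TOB genes measured were called, both higher. Of all genes, 13.2% were called and 6.96% called higher. The median of the 6 family genes was 0.11, against -0.00923 over all genes. Btg3, a further antiproliferative family member, had turned ratios of 0.51, 0.55 and 0.46 on the forward arrays and 0.54, 0.71 and 0.49 on the swapped arrays. Its arrays overlapped between orientations, and the mean was 0.54 ± 0.08 (SD, n = 3; limma, adjusted p = 0.00104), or 1.46-fold. Btg4, known as a deadenylation adaptor in oocytes, had ratios of 0.05, 0.18 and 0.14 on the forward arrays and -0.24, -0.26 and -0.25 on the swapped arrays, split by orientation in the way of Btg1, and averaged -0.06 ± 0.03.

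Tob1 and Tob2 encode longer family members whose extended carboxy termini also bind poly(A)-binding protein. Tob1 had the widest range of single arrays in the family, 1.64. Its ratios were 0.30, 0.87 and -0.11 on the forward arrays and -0.40, -0.77 and 0.44 on the swapped arrays. Sets 1 and 2 thus changed sign between orientations in 1 direction and set 3 in the other. Before turning, both arrays of each set had the same sign. The dye component of Tob1 was 0.30 ± 0.55 (SD, n = 3 sets; limma, adjusted p = 0.422), the largest mean of the family. Its treatment mean of 0.05 ± 0.11 was not called (limma, adjusted p = 0.567) and was -0.0017 without set 3. The interval of that mean from the 6 single arrays was -0.36 to 0.47. Tob2 had 2 probes, at 0.05 ± 0.12 and 0.27 ± 0.17 (SD, n = 3), neither of them called, and averaged 0.16 ± 0.15 (limma, adjusted p = 0.165). Ordered by mean ratio, the family ran Btg2, Btg3, Tob2, Tob1, Btg1 and Btg4, and among the last 4 the single arrays of neighbours overlapped.

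**Figure D3:**
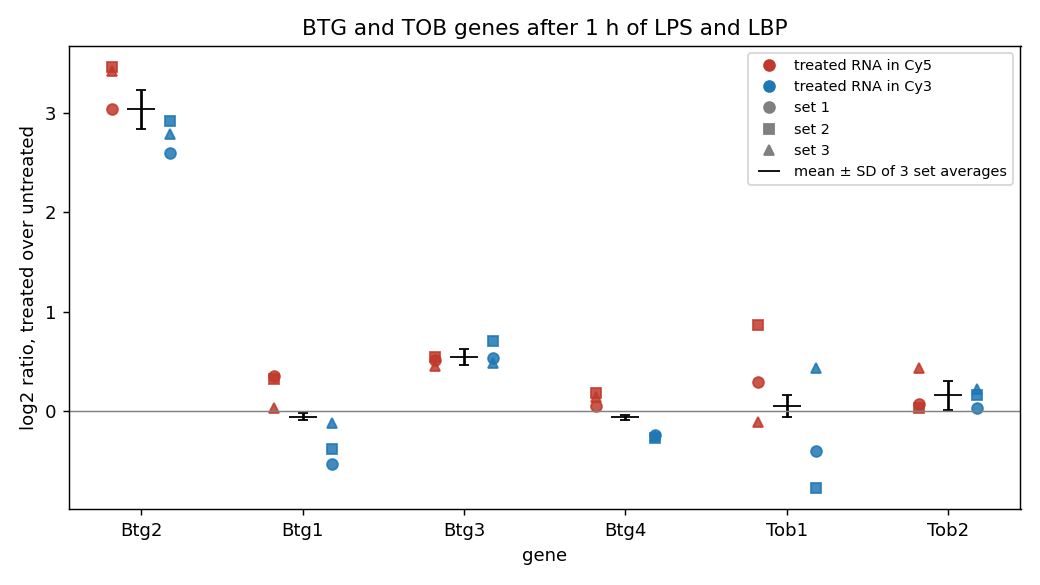
Log2 ratio of treated over untreated RNA (y axis) for the 6 BTG and TOB genes (x axis), 1 point per array, red with treated RNA in Cy5 and blue with treated RNA in Cy3, with marker shapes for sets 1 to 3 and black bars for the mean ± SD of the 3 set averages. Btg2 stands between 2.60 and 3.46 and Btg3 between 0.46 and 0.71, while the arrays of Btg1, Btg4 and Tob1 lie on both sides of 0.

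The genes whose ratios over the 6 turned arrays were most like those of Btg2 were Lynx1, Cxcl10, Traf1, Myc and Dusp2, by root mean square differences of 0.191, 0.276, 0.381, 0.397 and 0.445 on the log2 scale. No other gene lay within 0.5 of Btg2. Lynx1, whose protein tunes nicotinic receptors at the cell surface, rose by 2.97 ± 0.05 on the probe with 6 ratios, but another Lynx1 probe with a ratio on 2 arrays read 0.24 and -0.27. The chemokine gene Cxcl10 rose by 3.00 ± 0.24, the growth regulator Myc by 2.79 ± 0.18 and the signalling adaptor gene Traf1 by 2.72 ± 0.23. The phosphatase gene Dusp2 rose by 2.62 ± 0.10, as the mean of probes at 3.54 and 1.71. For Btg1, 250 genes lay within 0.2 of it and 6948 of the 8331 genes tested within 0.5. The closest to Btg1 were Klhl10, Dipk1b, Muc4, Csf2rb and Myh8, at 0.092 to 0.0988. Those 5 had mean ratios between -0.07 and -0.01, were not called, and averaged 0.19 to 0.27 on the forward arrays and -0.32 to -0.24 on the swapped arrays, as Btg1 did with 0.24 and -0.34.

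Btg2 was cloned as 1 of the TIS genes, transcripts that a phorbol ester induces quickly in mouse fibroblasts. Of 6 other TIS genes measured, 4 rose, 1 fell and 1 was not called, with a median of 0.79. Of all genes, 6.96% rose and 6.21% fell. Egr1 (TIS8), an immediate early transcription factor, rose by 5.13 ± 0.16 and had a higher ratio than Btg2 in each set. The others had mean ratios below that of Btg2. Zfp36 (TIS11), whose protein recruits deadenylases to AU-rich mRNAs, rose by 2.14 ± 0.13, Ptgs2 (TIS10), the inducible cyclooxygenase, by 1.16 ± 0.29 and the cofactor gene Ifrd1 (TIS7) by 0.42 ± 0.10. Nr4a1 and Fos were chosen once values were known. Nr4a1 (TIS1), a nuclear receptor gene, averaged 0.11 ± 0.09. Fos (TIS28), an AP-1 subunit, fell by 0.25 ± 0.04 over probes at -0.45 and -0.04, of which the first was called, and it lost its call without set 1 (-0.27; limma, adjusted p = 0.0704) and on the swapped arrays alone (-0.20; adjusted p = 0.14).

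Among other p53 target genes, 7 of 17 measured genes rose and 1 fell, against 6.96% and 6.21% of all genes, so the number that fell was near the background. The median was 0.07, and the counts were equal without set 1, 2 or 3. All 7 had mean ratios below that of Btg2. Mdm2, which restrains p53, rose by 1.20 ± 0.15, Gadd45a, a growth arrest and DNA damage gene, by 1.18 ± 0.15, and Fas, a receptor that triggers cell death, by 1.16 ± 0.15. The Gadd45a probes were at 1.48 and 0.87, both called, and the second read -0.07 on the swapped array of set 2. Those of Fas were at 1.31 and 1.00, both called. Plk2, a stress-responsive kinase, rose by 1.30 ± 0.06 on its complete probe, while a probe with a ratio on 5 arrays averaged 0.42. Named after their values were seen, the kinase gene Plk3 rose by 1.05 ± 0.05, the stress sensor gene Sesn2 by 0.57 ± 0.26, and the death promoter gene Pmaip1 fell by 0.40 ± 0.07. Sesn2 was not called with zeros kept as ratios (limma, adjusted p = 0.112).

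Of the deadenylation machinery through which BTG proteins act, 0 of 9 measured genes were called by limma, where 13.2% of all genes were. The median was 0.12. At an unadjusted p under 0.05 there were 6 of them (66.7%), against 27% of all genes. The fit to single arrays with a dye term called 1 of them, and 1439 of all 8331 genes. Cnot8, a deadenylase that binds BTG proteins, was negative on 6 of 6 arrays, at -0.13 ± 0.02 (limma, adjusted p = 0.0858). A single sign on all 6 turned arrays was found in 19.1% of all genes. Cnot4, a ubiquitin ligase of the complex and the 1 gene called with the dye term, averaged 0.30 ± 0.21 (limma, adjusted p = 0.0623), and was also called without set 2 (0.37; adjusted p = 0.0386) and on the forward arrays alone (0.50; adjusted p = 0.0276). Pan3, a subunit of another deadenylase, averaged 0.15 ± 0.13 and Cnot9 averaged 0.13 ± 0.08. Pabpc1, a poly(A)-binding protein gene, was listed at 0 on all arrays. Cnot1, Cnot3, Cnot6, Cnot6l, Cnot7, Cnot10 and Pan2 had no probe assigned to them alone and were not analysed here. Of 4 reported binding partners of BTG proteins, 1 was called, where 6.96% of all genes were called higher. This was the stress transcription factor gene Atf4, which rose by 0.21 ± 0.06. That call was lost without set 1 (0.21; limma, adjusted p = 0.16) or set 2 (0.18; adjusted p = 0.101), on the forward arrays alone (0.20; adjusted p = 0.0715), on the swapped arrays alone (0.23; adjusted p = 0.0941) and with zeros kept as ratios (adjusted p = 0.0773). The arginine methyltransferase gene Prmt1 (0.06 ± 0.19), Hoxb9 (0.07 ± 0.03) and Smad1 (-0.05 ± 0.04) were not called.

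G1 phase regulators, whose cyclin D1 is a known target of BTG proteins, had 1 of 18 genes higher and 4 lower, with a median of -0.05. Of all genes 6.96% were higher, so the 1 gene was near the background, and 6.21% were lower. Without set 1, 2 or 3 there were 2, 1 and 1 higher and 1, 2 and 1 lower. Cdkn1a, the kinase inhibitor p21 and also a p53 target, was the gene that rose, by 0.67 ± 0.09 over probes at 0.26, 0.84 and 0.91. Cdkn2d, an inhibitor of CDK4 and CDK6, fell by 0.34 ± 0.07. Ccnd1, the cyclin D1 gene, was picked with its ratio known. It fell by 0.21 ± 0.04 and was negative on 6 of 6 arrays, where 19.1% of all genes kept 1 sign on all 6 turned arrays. It was not called without set 1 (-0.23), set 2 (-0.19) or set 3 (-0.20), nor on the forward (-0.23) or swapped arrays (-0.18) alone. It averaged -0.10 with an incomplete probe included and -0.07 with zeros kept as ratios, not called in either. Cdkn1b averaged -0.27 ± 0.41 and was called without set 2 (-0.51; limma, adjusted p = 0.0012), and Cdk6 averaged 0.23 ± 0.27 and was called without set 1 (0.39; limma, adjusted p = 0.0275).

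Btg1 is known as a target of FoxO factors, and FoxO factors and quiescence-linked genes had 2 of 10 genes higher and 4 lower, with a median of -0.15, where 6.96% of all genes were higher and 6.21% lower. Without set 1, 2 or 3 there were 1, 1 and 2 higher and 3, 5 and 3 lower. The glucocorticoid-induced gene Tsc22d3 fell by 0.91 ± 0.16 and Txnip, an inhibitor of thioredoxin, by 0.77 ± 0.10. The zinc finger factor gene Klf2 fell by 0.47 ± 0.23. That call was lost without set 1 (-0.40; limma, adjusted p = 0.111), on the swapped arrays alone (-0.28; adjusted p = 0.164) and with zeros kept as ratios (adjusted p = 0.128). The repressor gene Bcl6 rose by 0.55 ± 0.13. Btg1, at -0.05, lay between the genes of this list that fell and those that rose.

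**Figure D4:**
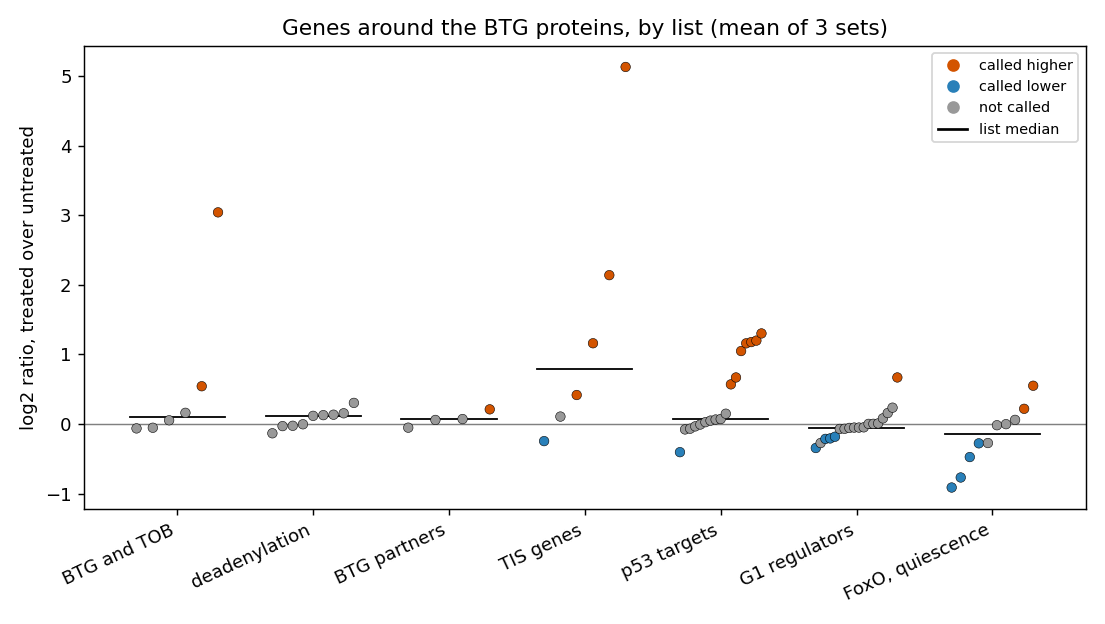
Mean log2 ratio of treated over untreated RNA (y axis) for the measured genes of 7 lists (x axis), 1 point per gene sorted by value, orange where called higher, blue where called lower and grey where not called, with a black line at each list's median. Btg2, at 3.04, exceeds every plotted gene but Egr1 at 5.13. The deadenylation list has no called gene, where 13.2% of all genes were called.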

How the data were processed

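The authors deposited 1 log2 ratio per probe and array for 6 dual-channel arrays. Their base was found from the numbers: once multiplied by the log10 of 2, 100% of the ratios above 0.1 in size had 6 digits (relative tolerance 1e-13). Scanner, background correction and normalization are not given in the sources used here. Array medians of the measured ratios were 0.00432 to 0.0159, so the arrays were centred near 0 in an unknown way.

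The arrays carrying treated RNA in Cy3 were turned by a factor of -1. Of the probes, 13738 had 1 gene symbol, 52 had several and 2491 had none, and 13694 probes had a gene ID found in RefSeq (GRCm38.p6), which changed 0 symbols. Complete probes with 1 symbol (9968) were averaged to 8331 genes. Set averages were tested against 0 with limma 3.58.1 (R 4.3.3, lmFit and eBayes, two-sided, 2 residual and 4.08 prior degrees of freedom), after a run on simulated data. A fit over 11442 probes gave adjusted p = 1.04e-05 for Btg2 and adjusted p = 0.473 for Btg1, with 12.5% of probes called. Named genes were the BTG and TOB family, up to 4 genes of largest ratio per list, the 5 closest genes to each member, Egr1 and Tnf (2.44 ± 0.19). Outside this rule, Nr4a1, Fos, Plk3, Sesn2, Pmaip1 and Ccnd1 were named after their values were seen. The members and lists were chosen with earlier results of these data known. Alternatives were each set left out, each orientation alone, single arrays with a dye term, 2 normalizations, zeros kept, incomplete probes and probe medians.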

Additional observations from a re-analysis of the deposited data

Results flagged for a closer look

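Some genes moved 1 way on all 3 arrays with treated RNA in Cy5 and the other way on all 3 with treated RNA in Cy3, as 13.7% of all genes did. The dye component, the mean of the unturned ratios, was 0.29 for Btg1, from orientation means of 0.24 and -0.34 (limma, adjusted p = 0.14). It was 0.19 for Btg4 (0.13 and -0.25; limma, adjusted p = 0.114) and 0.14 for Hoxb9 (0.21 and -0.07; limma, adjusted p = 0.127). Among the genes closest to Btg1, which were chosen for that pattern, it was 0.26 for Dipk1b, 0.23 for Muc4 and 0.23 for Myh8 (limma, adjusted p = 0.142, 0.173 and 0.133). None of these 6 dye components passed the test on set averages, which 0.06% of all genes did. With single arrays and a dye term, where 277 genes passed, that of Btg4 did (limma, adjusted p = 0.0445) and that of Btg1 did not (adjusted p = 0.0595). For Hoxb9, Dipk1b, Muc4 and Myh8 that fit is not reported here.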

How the results depend on the processing

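Btg2 was called higher under every alternative run, with a ratio of 2.96 to 3.15 without 1 set and 2.77 to 3.31 over all alternatives, and Btg1 was called under none. Btg1 turned to 0.24 with treated RNA in Cy5 alone and was -0.34 in Cy3 alone, and -0.07 to -0.04 without 1 set. The Btg2 minus Btg1 difference ranged from 3.03 to 3.19 without 1 set. The replicate block (set, 6 arrays with a dye term) left Btg2 at 3.04 (adjusted p = 6.09e-07) and Btg1 at -0.05, and called 1340 genes, against 1439 without it. After turning, deviations of same-numbered arrays from the mean of their orientation correlated at r = 0.00556, -0.258 and -0.0636 (sets 1, 2 and 3). The consensus correlation within a set was 0.0825 over genes. Both arrays of set 2 held the largest shares of zeros (17.7% and 23.9%). The turned ratios thus gave little sign of pairing by number in the treatment ratio. A negative r after turning means that the deposited ratios of same-numbered arrays deviated the same way. The deposited ratios of Btg1 and of Tob1 kept the same order of sets in both orientations. Whether the arrays of a set shared a dye effect, which their average would cancel, was not tested. Set averages can have too small an SD and too small a p. Genes called numbered 499 to 832 without 1 set (296 to 471 higher, 203 to 387 lower), against 1097, 580 and 517 as reported. They numbered 649 with treated RNA in Cy3 alone (383 and 266) and 522 with zeros kept as ratios (286 and 236). Leaving out a set leaves fewer averages, and the cause of the lower counts was not tested. Of the other named genes, those that changed sign were uncalled: Btg4 (0.13), Prmt1 (-0.024), Klhl10 (0.27), Dipk1b (0.19), Muc4 (0.22), Csf2rb (0.27) and Myh8 (0.19) with treated RNA in Cy5 alone, Tob1 (-0.25) and Hoxb9 (-0.071) with it in Cy3 alone, and, with 1 set left out, Csf2rb (-0.050 to 0.064), Prmt1 (-0.040 to 0.15) and Tob1 (-0.0017 to 0.11). No called gene changed sign. The ratios carry no intensities, so signal over background is unknown.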
